A study of Mus musculus with 5464 samples.

Results

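The genes described here are Ucp2, Serinc3, Ces2e and Ces2g, 4 of the 29735 genes in a table of raw counts from 5464 single kidney endothelial cells. They were chosen by measured values, because their level in diabetic mice lay on one side of the level in control mice at young ages and on the other side at 20 weeks, so the genotype ratios below are a description of what chose them and carry no test. Kidneys of untreated BTBR ob/ob mice, which lack functional leptin and become obese and diabetic with kidney disease, were compared with those of non-diabetic Lean littermates, heterozygous or wild type at that locus. The mice were 6, 11 or 20 weeks old. All were female, and the methods name the strain BTBR, whereas the labels name the strain C57BL/6, the genotypes Lean and Obese and the disease states control and diabetic nephropathy. After removal of the papilla, live Pecam1-positive cells were sorted singly into 384-well plates and their full-length polyadenylated RNA was amplified and sequenced by SmartSeq2.

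The Lean groups held 1058, 1375 and 588 cells at 6, 11 and 20 weeks on 4, 5 and 2 plates, and the ob/ob groups held 675, 867 and 901 cells on 3, 4 and 4 plates. A cell had between 50274 and 1489280 counts, with a median of 291393. The methods give 3 mice for most combinations of genotype and age and 2 for Lean at 6 weeks. No plate mixed genotypes or ages, and no label ties a plate or a cell to an animal. Each genotype and age is therefore 1 sample, plate and group cannot be told apart, and no p-value is given for a genotype or an age. Plates are named A to E within a group. Levels are counts of the gene per 500000 counts of the cells concerned, with an exact Poisson 95% interval that covers counting error only.

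Both Lean plates at 20 weeks and plates A and B of the Lean group at 11 weeks stood apart from the other 18 plates. Xist, the RNA transcribed from the inactive X chromosome of female cells, was at 0.0853 or less in these 4 plates and between 110.7 and 255.6 in the others, while the Y-linked genes Ddx3y and Eif2s3y were at 0.0250 or less in every group, Uty between 0.252 and 0.312 and Kdm5d between 0.486 and 0.715. Values at 11 weeks are given below with and without those plates, whereas at 20 weeks no other Lean plate exists. The part of this difference in the results was not tested. The paper mentions expression of Xist and Tsix as a trait of some of its female mice, without naming their plates.

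UCP2 is a carrier of the inner mitochondrial membrane that belongs to the uncoupling protein family and has been studied for its influence on mitochondrial substrate use and oxidant production. SERINC3 is a multipass membrane protein of the serine incorporator family, known for lipid scrambling and for restricting some enveloped viruses. CES2E and CES2G are carboxylesterases of the endoplasmic reticulum, serine hydrolases that cleave ester bonds in lipids and drugs, and their genes lie in a tandem cluster. In the kidney, blood runs from afferent arterioles through the fenestrated glomerular capillaries into efferent arterioles and then into peritubular capillaries or the vasa recta of the medulla.

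The 4 start site regions are shown because Ucp2 and Serinc3 moved together and opposite to the carboxylesterase genes. Each sequence is read from RefSeq on build GRCm38.p6, 5′ to 3′ on the strand of the gene, from 250 bases before to 50 bases after the annotated start. Capitals mark every match, on either strand, to the letters GGGCGG of an Sp1 site or CCAAT of a CCAAT box. The regions are chr7:100493108-100493407 on the plus strand for Ucp2, chr2:163645094-163645393 on the minus strand for Serinc3, chr8:104926010-104926309 on the plus strand for Ces2e and chr8:104961468-104961767 on the plus strand for Ces2g.
Ucp2: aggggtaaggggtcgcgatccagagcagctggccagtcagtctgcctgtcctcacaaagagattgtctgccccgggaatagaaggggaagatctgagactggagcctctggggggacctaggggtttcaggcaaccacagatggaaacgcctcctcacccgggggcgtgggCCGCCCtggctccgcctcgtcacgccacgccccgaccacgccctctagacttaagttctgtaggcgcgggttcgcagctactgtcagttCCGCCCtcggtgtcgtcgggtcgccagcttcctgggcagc
Serinc3: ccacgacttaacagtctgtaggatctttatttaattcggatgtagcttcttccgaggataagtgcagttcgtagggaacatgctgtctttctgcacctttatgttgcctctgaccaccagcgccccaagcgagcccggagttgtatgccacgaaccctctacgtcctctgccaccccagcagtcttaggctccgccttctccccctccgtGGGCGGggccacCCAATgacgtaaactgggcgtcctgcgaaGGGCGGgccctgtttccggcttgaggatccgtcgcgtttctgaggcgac
Ces2e: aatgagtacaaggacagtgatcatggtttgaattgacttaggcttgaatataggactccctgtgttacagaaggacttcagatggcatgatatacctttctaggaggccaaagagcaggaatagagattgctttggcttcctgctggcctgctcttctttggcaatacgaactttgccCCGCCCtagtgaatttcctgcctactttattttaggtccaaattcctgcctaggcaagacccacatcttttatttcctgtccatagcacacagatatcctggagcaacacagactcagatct
Ces2g: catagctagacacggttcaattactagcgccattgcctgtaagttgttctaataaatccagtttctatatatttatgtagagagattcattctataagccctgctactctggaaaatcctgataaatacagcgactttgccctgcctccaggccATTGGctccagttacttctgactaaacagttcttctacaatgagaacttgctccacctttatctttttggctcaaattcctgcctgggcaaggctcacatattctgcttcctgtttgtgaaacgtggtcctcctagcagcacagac

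The Ucp2 and Serinc3 regions were rich in G and C, at 64.3% and 57.7%, with 21 CpG pairs each, whereas the Ces2e and Ces2g regions held 44.7% and 43.0% with 2 and 4 CpG pairs. Across all 32817 RefSeq promoter regions of the same length, 80.4% had fewer G and C than that of Ucp2 and 21.1% had fewer than that of Ces2e. The Sp1 letters occurred 2 times in Ucp2, 2 times in Serinc3 and 1 time in Ces2e, and they were found in 35.6% of all promoter regions. The CCAAT letters occurred 1 time each in Serinc3 and Ces2g and in 37.4% of all regions. No region held TATAAA, the E-box CACGTG, the FOXO letters GTAAACA or the DR1 element of PPAR receptors, which occurred in 13.6%, 7.15%, 3.65% and 0.0396% of all regions. The longest stretch shared by the Ces2e and Ces2g regions was caaattcctgcct, 13 bases long, at positions -34 to -22 of Ces2e and -24 to -12 of Ces2g, and 3 of the 32817 regions held it. The other pairs of regions shared at most 10 bases. None of these matches shows that a factor binds there.

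Ucp2 (ENSMUSG00000033685) spans chr7:100493337-100502020 in GRCm38 with 6989 exonic bases over all its transcripts. Over all cells its level was 181 in Lean and 334 in ob/ob at 6 weeks, 239 and 474 at 11 weeks, and 433 and 266 at 20 weeks. The Poisson interval was 180 to 182 for the lowest of these levels and 472 to 477 for the highest. In Lean plates at 6 weeks the level was 244, 242, 152 and 123, and in ob/ob plates 401, 345 and 278. At 11 weeks the 5 Lean plates ranged from 193 to 281 and the 4 ob/ob plates from 345 to 546. At both ages every ob/ob plate thus lay above every Lean plate. At 20 weeks the order was turned, with 492 and 383 in the Lean plates against 363, 213, 208 and 197 in the ob/ob plates, again without overlap, plate A of ob/ob lying closest to the Lean plates. The log2 ratio of ob/ob to Lean, taken after adding 1 to each level, was 0.88, 0.98 and -0.70 at the 3 ages.

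Serinc3 (ENSMUSG00000017707, chr2:163623272-163645131, minus strand, 3840 exonic bases) followed the same course. Its level was 168 in Lean and 242 in ob/ob at 6 weeks, 128 and 274 at 11 weeks, and 284 and 150.5 at 20 weeks, with log2 ratios of 0.52, 1.10 and -0.91. At 6 weeks the Lean plates lay between 152 and 199 and the ob/ob plates at 256, 231 and 239. The gap was wider at 11 weeks, with Lean plates at 175, 126, 103, 89.4 and 135 and ob/ob plates at 284, 324, 295 and 215. At 20 weeks the Lean plates stood at 265 and 301 and the ob/ob plates at 159.9, 153, 169.8 and 125. The plates of the genotypes did not overlap at any age.

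Ces2e (ENSMUSG00000031886, chr8:104926260-104934672, plus strand, 2699 exonic bases) took the opposite order. The level was 148 in Lean and 114 in ob/ob at 6 weeks, 139 and 97.3 at 11 weeks, and 72.2 and 141 at 20 weeks, with log2 ratios of -0.38, -0.51 and 0.96. Plates overlapped at 6 weeks, where Lean lay between 135 and 158 and ob/ob at 144, 111 and 93.0, and at 11 weeks, where Lean ran from 77.0 to 245 and ob/ob from 39.2 to 124. They separated at 20 weeks, with 76.2 and 68.7 in Lean against 132, 147, 117 and 163 in ob/ob.

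Ces2g (ENSMUSG00000031877, chr8:104961718-104969537, plus strand, 3574 exonic bases) was the least abundant of the 4 genes and had no early difference. Its level was 34.5 in Lean and 34.2 in ob/ob at 6 weeks, 42.3 and 16.1 at 11 weeks, and 14.8 and 33.6 at 20 weeks, and the log2 ratios were -0.01, -1.34 and 1.13. At 6 weeks the 4 Lean plates lay between 30.5 and 40.2, inside the range of the ob/ob plates at 20.6, 50.2 and 34.9. At 11 weeks Lean plates stood at 42.5, 34.7, 61.3, 56.8 and 25.6 and ob/ob plates at 17.7, 18.4, 9.69 and 17.8, without overlap. At 20 weeks the Lean plates, at 13.4 and 16.0, lay below the ob/ob plates at 18.1, 33.2, 50.7 and 47.3.

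**Figure D1:**
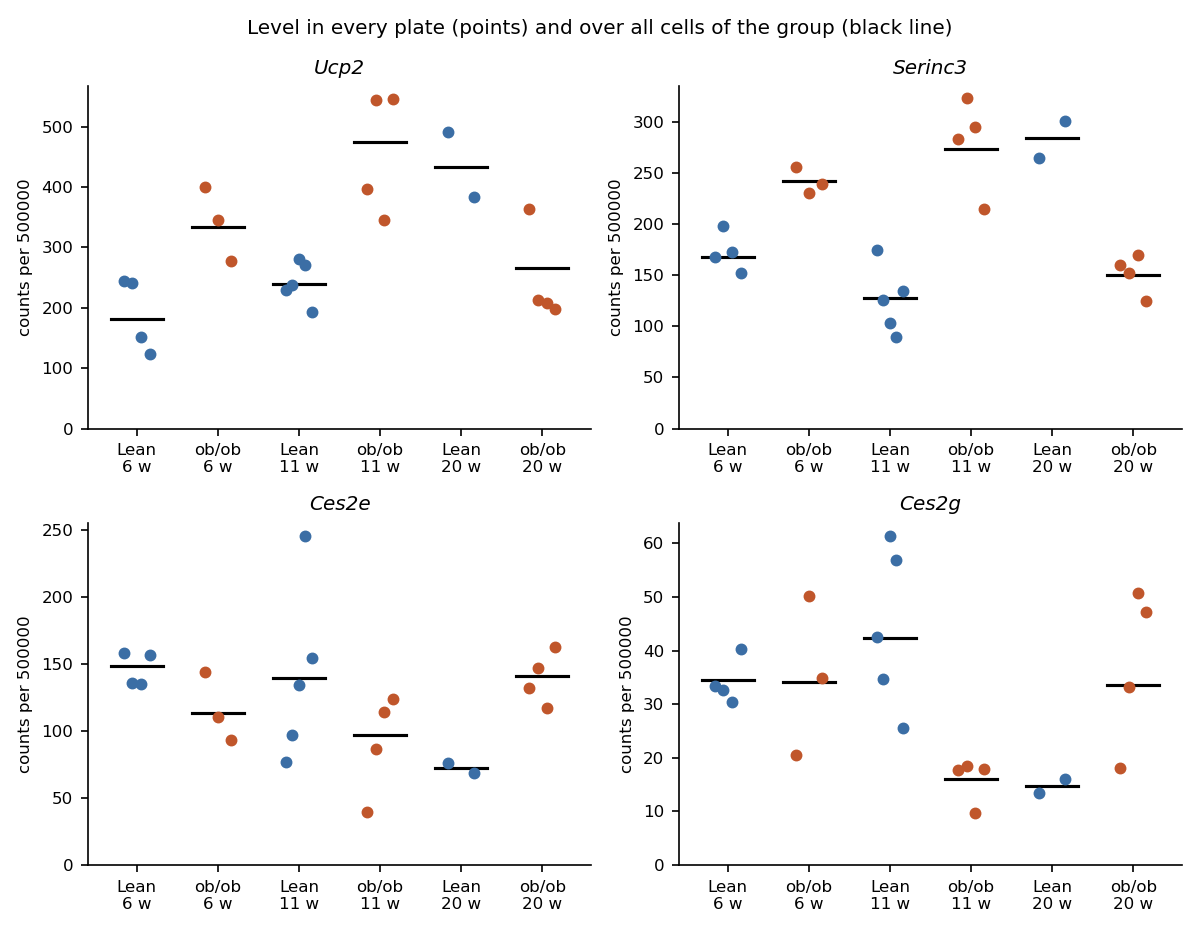
Counts per 500000 of the 4 genes on a linear axis from 0, by genotype and age in weeks (w), with 1 point for each plate (Lean blue, ob/ob orange) and a black line for all cells of the group. The points of the genotypes are apart at all 3 ages for Ucp2 and Serinc3, at 11 and 20 weeks for Ces2g and at 20 weeks only for Ces2e.

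Per kilobase of exon, merged over all transcripts of a gene, Serinc3 ranged from 33.2 to 74.0 over the 6 groups and Ucp2 from 25.8 to 67.9. Ces2e ranged from 26.7 to 54.9 and Ces2g from 4.14 to 11.8. The merged length can exceed that of a single transcript, so genes are compared only roughly. For Ucp2 it was 6989 bases over 11 transcripts, against 3840 over 2 for Serinc3. Without the Lean plates A and B that lacked Xist, a choice made after seeing the data, the log2 ratios at 11 weeks were 0.96 for Ucp2, 1.30 for Serinc3, -0.91 for Ces2e and -1.45 for Ces2g, each with the sign it had over all plates.

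The levels at 6 and 20 weeks can also be compared within a genotype. From 6 to 20 weeks the Lean level rose from 181 to 433 for Ucp2, by a factor of 2.40, and from 168 to 284 for Serinc3, by 1.69. Over the same ages the ob/ob level went from 334 to 266 for Ucp2, a factor of 0.794, and from 242 to 150.5 for Serinc3, a factor of 0.621. Between 11 and 20 weeks alone the Lean level of Serinc3 was multiplied by 2.23 and the ob/ob level by 0.550. For Ces2e the Lean level at 20 weeks was 0.487 times that at 6 weeks and the ob/ob level 1.24 times, and for Ces2g the factors were 0.429 and 0.984, so that between these ages only the Lean level of Ces2g differed much.

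For these 4 genes, which were chosen for this turn of order, the plates at 20 weeks can be set beside the younger plates as a description. The same was not counted over all genes, so nothing is read from these numbers. Both Lean plates at 20 weeks lay outside the range of the 9 Lean plates at 6 and 11 weeks for all 4 genes and inside the range of the 7 ob/ob plates of those ages for all 4. Conversely, the number of the 4 ob/ob plates at 20 weeks that fell inside the range of the younger Lean plates was 3 for Ucp2, 4 for Serinc3, 4 for Ces2e and 3 for Ces2g, against 1, 0, 2 and 3 inside the range of the younger ob/ob plates. In Xist the same Lean plates differed from all 7 younger ob/ob plates. The ob/ob plates at 20 weeks, at 138 to 192, lay inside the range of the younger Lean plates that had Xist, 135 to 204. No other Lean plate at 20 weeks exists, and what these differences come from was not tested.

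Set against all genes at 5 or more counts per 500000 in either group of an age, every ob/ob plate lay above every Lean plate for 4.62% of 10249 genes at 6 weeks and for 1.18% of 10131 genes at 11 weeks, and Ucp2 and Serinc3 were among them at both ages. Every ob/ob plate lay below every Lean plate for 3.35% of genes at 6 weeks, none of the 4 among them, and for 1.78% at 11 weeks, Ces2g included. At 20 weeks, where the Lean group had only 2 plates, the share was 9.24% below, with Ucp2 and Serinc3, and 9.03% above, with Ces2e and Ces2g. A fold of 1.5 was passed upward by 7.7%, 4.41% and 7.3% of genes and downward by 5.21%, 9.33% and 9.31% at the 3 ages. Ucp2 passed it at every age, whereas Serinc3 and Ces2g passed it at 11 and 20 weeks and Ces2e at 20 weeks. Since the genes were chosen on these ratios, nothing is read from their place in these shares.

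Among 9706 genes at the minimum level at every age, the signs up, up and down from 6 to 20 weeks were shared by 1141 genes or 11.8%, and the signs down, down and up by 1591 or 16.4%. Complete separation of the plates at all 3 ages together with the first pattern was found in 4 genes or 0.0412%, namely Ucp2, Serinc3, Lfng and Sost, and with the mirrored pattern in 3 genes or 0.0309%, namely Hspa1a, the overlapping opposite-strand gene Gm20481, and Rrp15. A reversal past 1.5-fold at all 3 ages held for 17 genes or 0.175% in the direction of Ucp2, which was one of them, and for 31 genes or 0.319% in the other direction, none of them Ces2e or Ces2g. At 11 and 20 weeks alone it held for 45 genes or 0.464%, with Ucp2 and Serinc3, and for 141 genes or 1.45% in the other direction, with Ces2g. Lfng, Sost and the mirrored genes were named after their values were seen. The median log2 ratio of all genes was 0.01, -0.09 and 0.01 at the 3 ages.

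In single cells, the genes fell into 2 kinds of distribution. Serinc3 was present in almost all cells, and its median per cell moved with the summed level, from 134 in Lean and 214 in ob/ob at 6 weeks to 92.8 and 223 at 11 weeks and 271 and 124 at 20 weeks. The 10% of cells with the most Serinc3 held between 23.1% and 37.1% of its counts. Ucp2 was more uneven, with medians of 14.4 and 281 at 6 weeks, 38.6 and 383 at 11 weeks, and 394 and 135 at 20 weeks. Its lower quartile was 28.97 or less in every group while its upper quartile ran from 314 to 813, so each group held cells with little Ucp2 beside cells with much of it.

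The carboxylesterase counts came from few cells. The median cell had between 1.73 and 5.26 counts per 500000 of Ces2e in the 6 groups and 0 of Ces2g in all of them. The top 10% of cells held 61.0% to 78.9% of the Ces2e counts and 91.7% to 99.6% of the Ces2g counts. A level of these genes over a group therefore reads both how many cells carried the transcript and how much they carried.

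Because depth differed between cells, detection was compared after randomly drawing 50000 counts from every cell, which left out no cell, and exact binomial 95% intervals over cells cover counting error only. Ucp2 was then detected in 59.5% of Lean cells (interval 56.4 to 62.4) and 87.9% of ob/ob cells (85.1 to 90.2) at 6 weeks, in 70.6% and 87.2% at 11 weeks, and in 88.4% and 77.4% at 20 weeks. Serinc3 was near the ceiling, from 91.1% in Lean at 11 weeks to 99.3% in Lean at 20 weeks. Ces2e was detected in 48.4% and 47.6% of cells at 6 weeks, 48.3% and 35.1% at 11 weeks, and 35.9% and 51.3% at 20 weeks. Ces2g was detected in 20.1% and 19.7%, in 20.7% and 7.61%, and in 9.01% and 19.0%. Plates overlapped in many of these comparisons. For Ucp2 at 6 weeks, detection on Lean plate A was 91.8% and on ob/ob plate A 83.0%, and at 20 weeks it was 98.9% and 79.6% on the Lean plates against 80.9%, 88.7%, 56.0% and 73.5% on the ob/ob plates. For Ces2e at 20 weeks it was 46.1% and 27.3% on the Lean plates and 35.0%, 73.5%, 37.6% and 63.7% on the ob/ob plates. Before thinning, the median number of genes per cell was 5997 and 4316 on these Lean plates. On these ob/ob plates it was 3510, 6838, 3820 and 5280.5. In Lean and ob/ob groups it was 3775 and 5517 at 6 weeks, 4214 and 3396 at 11 weeks, and 4897.5 and 4364 at 20 weeks. The part of this difference in the detection shares was not tested. Without thinning, detection was higher in every group, for example 82.1% and 99.0% for Ucp2 and 38.1% and 44.4% for Ces2g at 6 weeks.

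**Figure D2:**
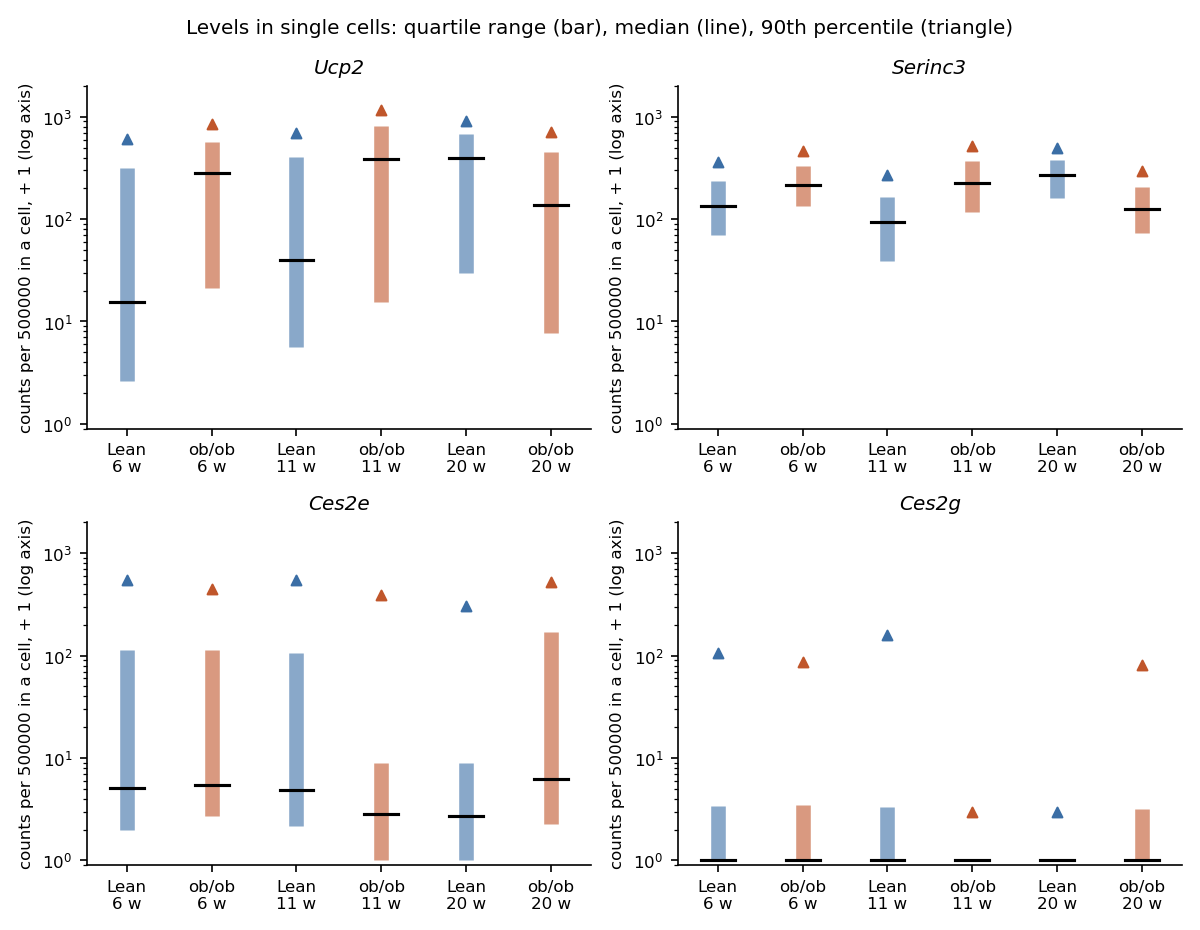
Counts per 500000 in single cells, plus 1, on a log axis for each genotype and age in weeks (w); the bar spans the quartiles, the black line is the median and the triangle the 90th percentile of the cells (Lean blue, ob/ob orange). Serinc3 shifts as a whole, the median of Ucp2 moves between 14.4 and 394, and the Ces2g median is 0 in all 6 groups.

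Vessel types were approached by gates on 1 marker gene per cell, with Gata5 at 20 or more counts per 500000 for glomerular cells, Slc14a1 at 50 for vasa recta, Kcnn4 at 20 for afferent, Aif1l at 20 for efferent and Plvap at 50 for capillary and venous cells. They held 713, 485, 169, 343 and 4931 cells. Other markers followed the gates, with Ehd3 at 2105 in the glomerular gate against 686 over all cells, Aqp1 at 2190 against 301 in the vasa recta gate, Gja5 at 511 against 86.6 in the afferent gate and Calca at 151 against 34.7 in the efferent gate. The Plvap gate took 90.2% of all cells, including 68.9% to 92.8% of those in the other gates, and 1147 cells passed 2 gates. Disjoint gates, a choice made after seeing the data, were formed from Plvap cells outside the other 4 gates and from cells in exactly 1 of those 4.

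In glomerular cells, Ucp2 stood at 332 in Lean and 532 in ob/ob at 6 weeks, 380.4 and 744 at 11 weeks, and 687 and 420.1 at 20 weeks. Serinc3 in the same cells stood at 195 and 298, at 145 and 366, and at 324 and 141. Ces2e went here from 285 in Lean against 127 in ob/ob at 6 weeks and 184 against 62.5 at 11 weeks to 47.6 against 192 at 20 weeks, with log2 ratios of -1.16, -1.54 and 1.99. In contrast to all cells together, the glomerular plates of Ces2e did not overlap at any of the 3 ages. The share of all genes with separate plates was counted over all cells only, not within this or any other gate. Ces2g moved from 79.3 and 60.3 through 95.5 and 36.0 to 18.3 and 77.6, and its glomerular plates were apart at 20 weeks only.

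In the capillary and venous gate, which holds most cells, the log2 ratios were 0.95, 1.09 and -0.75 for Ucp2 and 0.54, 1.08 and -0.87 for Serinc3, with no overlap of plates at any age. Those of Ces2e were -0.18, -0.48 and 0.93 and those of Ces2g 0.44, -1.10 and 1.29, and only the values at 20 weeks had separate plates.

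Across the 5 gates, Ucp2 and Serinc3 were higher in ob/ob in 5 of 5 gates at 6 and 11 weeks and lower in 5 of 5 at 20 weeks, and the same counts were obtained with disjoint gates. The log2 ratios spanned 0.59 to 1.01, 0.12 to 1.09 and -1.18 to -0.58 for Ucp2, and 0.06 to 0.61, 0.66 to 1.33 and -1.19 to -0.44 for Serinc3. The smallest of these, Serinc3 in the vasa recta at 6 weeks (149 and 155) and Ucp2 in the afferent gate at 11 weeks (173 and 187), had overlapping plates. Ces2e was lower in ob/ob in 3 of 5 gates at 6 weeks and 4 of 5 at 11 weeks and higher in 5 of 5 at 20 weeks. Ces2g was lower in 2 of 5 and 4 of 5 gates, or 2 and 3 with disjoint gates, and then higher in 5 of 5. The gates share cells, so these are not separate observations.

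Small gates carried less weight. The afferent gate held 9 Lean cells at 20 weeks and 11 ob/ob cells at 11 weeks, and the vasa recta gate held 22 Lean cells at 20 weeks. In the afferent gate Ces2e at 20 weeks was 1.45 in Lean and 50.1 in ob/ob, where the 4 ob/ob plates ranged from 1.80 to 116 and overlapped the Lean plates. In the vasa recta gate Ces2g had a single count in the 22 Lean cells and a level of 7.64 in the 79 ob/ob cells at 20 weeks, so no fold is given. Single plates decided some of the weaker signs: without ob/ob plate A, Ucp2 in the afferent gate at 6 weeks went from 1.01 to -0.80 on the log2 scale, and without ob/ob plate B, Ces2e at 20 weeks went from 0.68 to -0.78 in the vasa recta and from 0.73 to -0.39 in the efferent gate.

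**Figure D3:**
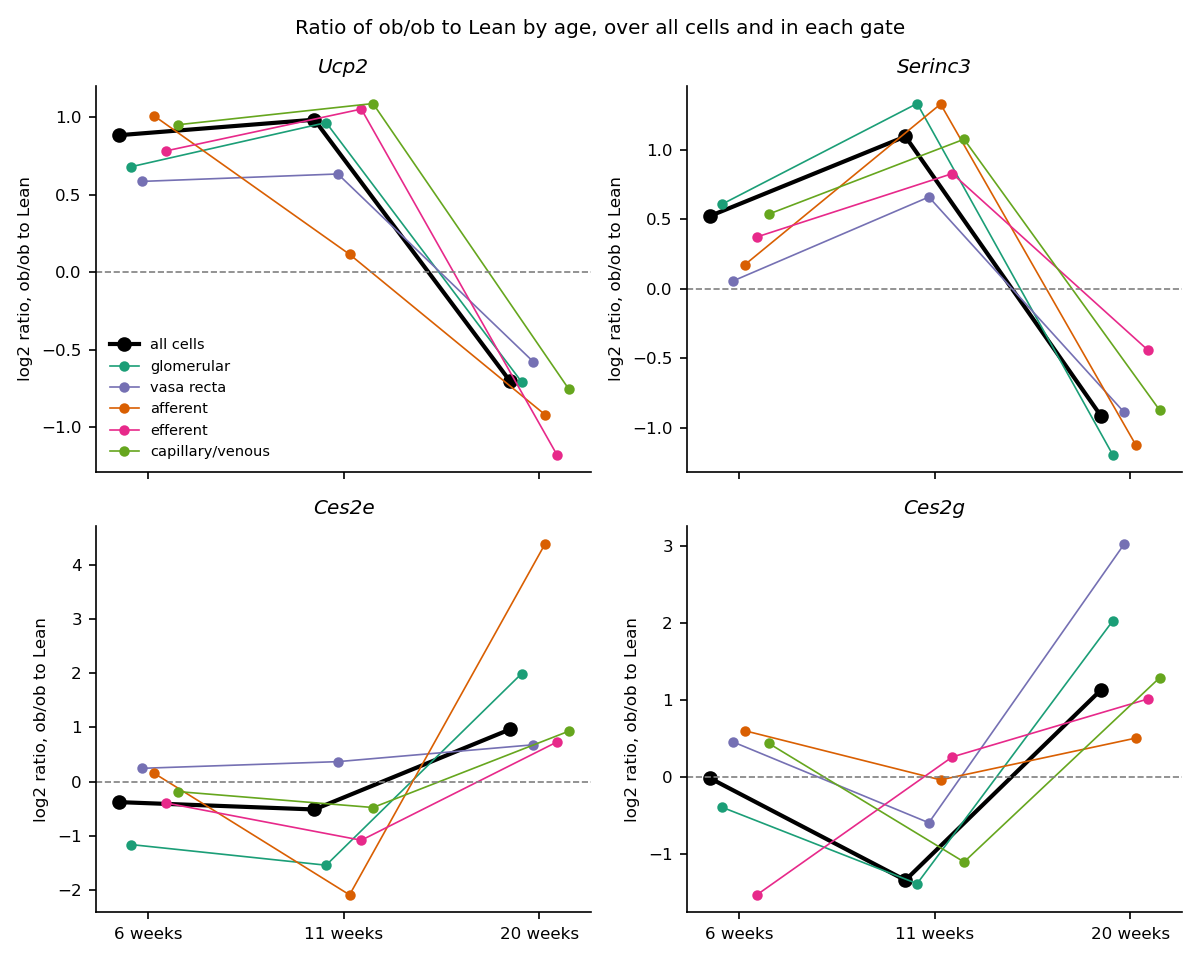
Log2 ratio of ob/ob to Lean after adding 1 count per 500000, at 6, 11 and 20 weeks, over all cells (thick black line) and in each of the 5 gates (coloured lines, shifted sideways for legibility); the dashed line marks equal levels. All lines of Ucp2 and Serinc3 lie above 0 at 6 and 11 weeks and below it at 20 weeks, while those of Ces2e and Ces2g spread widely in the gates with few cells.

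Whether the genes differed between vessel types within a genotype was not part of how they were chosen and could be tested. Counts of cells passing exactly 1 gate were summed by gate and age, and each gate was compared with the mean of the other 4 by edgeR's quasi-likelihood test with age as a covariate, the 3 ages serving as repeated samples. Ages differ from each other for these genes and the animal of each cell is unknown, so the p-values measure the spread across these sums. Some sums held very few cells, down to 1, and disjoint gates, with between 6 and 882 cells, are given beside them.

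Ces2e was higher in glomerular cells of Lean mice by 4.17 on the log2 scale (SE 0.90, edgeR adjusted p = 0.019) and in capillary and venous cells by 3.92 (SE 0.94, edgeR adjusted p = 0.022). Genes called higher made up 4.1% and 8.37% of the 12439 tested in these gates. In ob/ob the same contrasts gave 4.62 (SE 1.44, edgeR adjusted p = 0.043) and 4.43 (SE 1.42, edgeR adjusted p = 0.022), against 5.01% and 18.4% of 10958 genes called higher. Leaving out any single age ended each of these calls, with edgeR adjusted p between 0.081 and 0.20. With disjoint gates Ces2e was higher in Lean glomerular cells by 2.27 (SE 0.53, edgeR adjusted p = 0.041, 2.01% of 16991 genes called higher) and lower in Lean afferent cells, with a difference of -3.90 (SE 0.78, edgeR adjusted p = 0.012, 2.88% called lower), while no contrast of Ces2e passed in ob/ob. The Lean capillary and venous difference was 1.76 with disjoint gates and did not pass (SE 0.52, edgeR adjusted p = 0.13). Doubled gate thresholds ended all 4 calls made in cells of exactly 1 gate, with edgeR adjusted p between 0.060 and 0.11. By edgeR none of the other 3 genes passed in cells of exactly 1 gate, whereas DESeq2 on the same sums called Ces2g higher in afferent cells, by 4.08 in Lean (DESeq2 adjusted p = 0.020) and by 4.32 in ob/ob (DESeq2 adjusted p = 0.012). DESeq2 also called Ces2g lower in Lean efferent cells (DESeq2 adjusted p = 0.025) and in ob/ob vasa recta cells (DESeq2 adjusted p = 1.9e-05). It called Ces2e lower in Lean afferent cells, with a difference of -4.34 (DESeq2 adjusted p = 0.0032). Of 12439 genes in Lean, DESeq2 called 682 higher and 1135 lower in afferent cells and 2260 lower in efferent cells. Of 10958 genes in ob/ob, it called 485 higher in afferent cells and 1225 lower in vasa recta cells.

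In the disjoint gates Ucp2 was higher in glomerular cells, by 1.29 on the log2 scale in Lean (SE 0.16, edgeR adjusted p = 0.0011) and by 1.24 in ob/ob (SE 0.11, edgeR adjusted p = 0.00011, 2.1% of 15926 genes called higher). It was lower in afferent cells, with a difference of -0.86 in Lean (SE 0.19, edgeR adjusted p = 0.020) and of -1.02 in ob/ob (SE 0.13, edgeR adjusted p = 0.00067, 3.96% called lower). With exactly 1 gate the glomerular differences were of similar size, 1.54 (SE 0.61, edgeR adjusted p = 0.17) and 1.60 (SE 0.73, edgeR adjusted p = 0.19), and did not pass.

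Ces2g stood highest in afferent cells, where its level in the disjoint gate was 99.96, 205 and 159.7 in Lean and 151, 274 and 236 in ob/ob at the 3 ages. In no other disjoint gate did it exceed 98.3. The difference was 3.55 in Lean (SE 0.61, edgeR adjusted p = 0.0046, 3.15% of genes called higher) and 3.59 in ob/ob (SE 0.50, edgeR adjusted p = 0.0013, 3.48% called higher), and in cells of exactly 1 gate it was 3.85 (SE 1.27, edgeR adjusted p = 0.33) and 5.85 (SE 1.74, edgeR adjusted p = 0.18). After thinning, Ces2g was detected in 40.0% to 66.7% of the cells of the afferent gate, against 7.61% to 20.7% of all cells. Ces2e and Ces2g thus differed in place, the former being lowest and the latter highest in Lean afferent cells.

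Serinc3 varied less between disjoint gates than the other genes, with differences from -0.72 to 0.64 in Lean. It was higher in afferent cells by 0.64 in Lean (SE 0.13, edgeR adjusted p = 0.012) and by 0.60 in ob/ob (SE 0.14, edgeR adjusted p = 0.027), and the efferent difference of -0.72 in Lean did not pass (SE 0.14, edgeR adjusted p = 0.058). In cells of exactly 1 gate the afferent values were 0.26 and 0.31, with edgeR adjusted p of 0.99 and 1. Whether any gate difference was itself different between the genotypes was not tested.

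**Figure D4:**
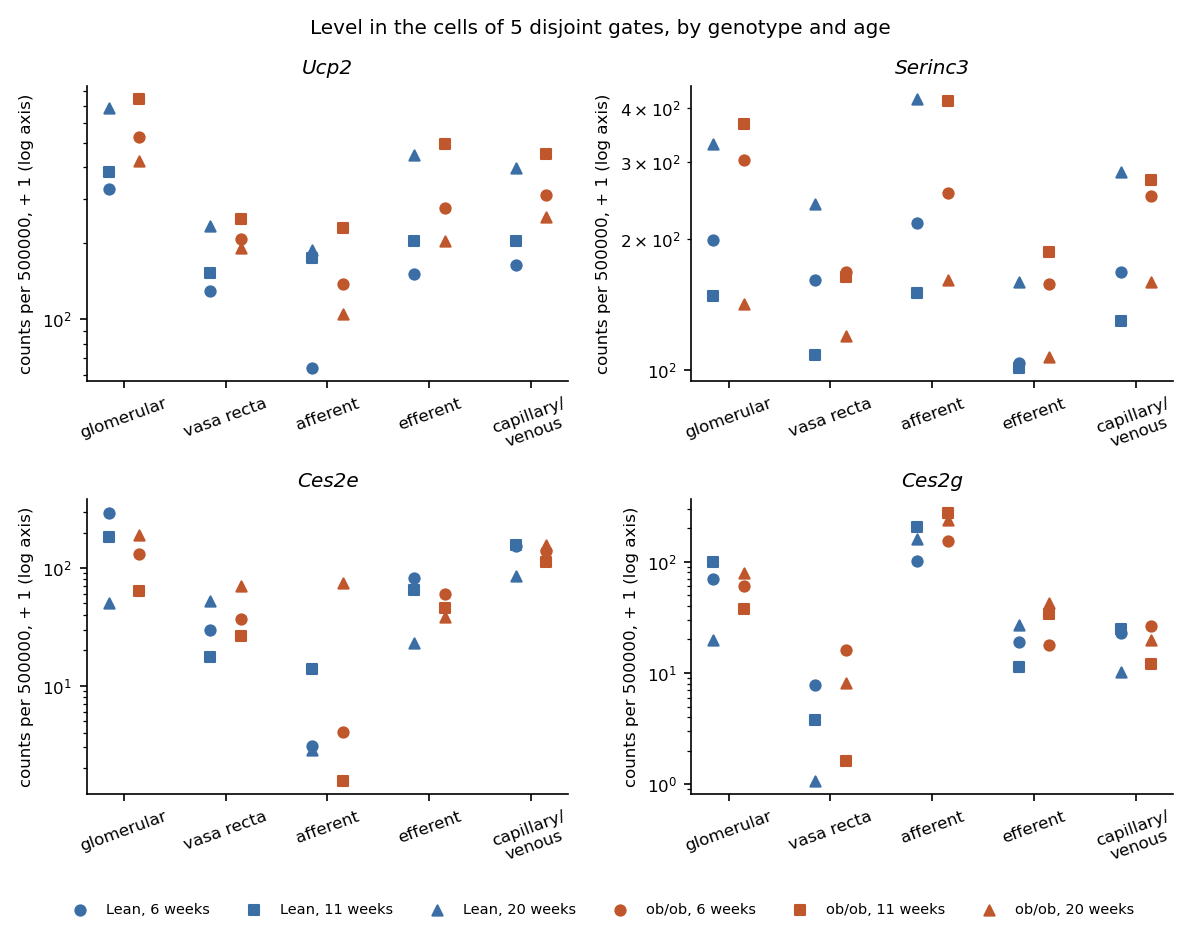
Counts per 500000, plus 1, of the 4 genes on a log axis in the 5 disjoint gates, with Lean in blue, ob/ob in orange, and circles, squares and triangles for 6, 11 and 20 weeks. Ucp2 is highest in glomerular cells, Ces2g stands at 99.96 to 274 in afferent cells, and the Ces2e level in afferent cells is at most 12.97 except in ob/ob at 20 weeks.

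Serinc3 overlaps an antisense gene at its start. 0610039K10Rik lies at chr2:163644850-163645801 on the plus strand and contains the whole Serinc3 start site region shown above. It shares 134 of its 952 exonic bases with Serinc3, and these are 3.49% of the Serinc3 exons. The level of 0610039K10Rik was 8.83 in Lean and 11.5 in ob/ob at 6 weeks, 6.54 and 14.3 at 11 weeks, and 12.4 and 6.88 at 20 weeks, with log2 ratios of 0.34, 1.02 and -0.77. Over the 22 plates it had the highest correlation with Serinc3 of 9891 genes (Pearson r = 0.96), at 4.14% to 6.46% of the Serinc3 level. SmartSeq2 libraries do not keep the strand, so reads of the shared bases cannot be assigned to one gene or the other. Ucp2 shares 305 exonic bases, 4.36% of its exons, with the opposite-strand gene Dnajb13, which was at 0.924 or less in every group.

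Reads of 50 bases can also be shared between paralogs. Of the 50-base windows of the exons, 3.30% in Ces2e and 3.12% in Ces2g occurred in another gene, other members of the Ces2 family among them, against 3.53% in Ucp2 and 2.66% in Serinc3. Ces2e and Ces2g lie 27046 bases apart with Ces2f between them, whose level was 0.0153 or less. Ucp3, next to Ucp2 in the genome, was at 0.00889 or less.

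Genes near the 4 loci were set beside them by the signs of the 3 ratios. Of the 10 nearest genes in the table for each, 6 reached 5 counts per 500000 around Ucp2, 5 around Serinc3, 5 around Ces2e and 6 around Ces2g. The 3 signs of Ucp2 were shared by 0 of its neighbours at that level and those of Serinc3 by 1, Ada, which encodes adenosine deaminase and had log2 ratios of 0.31, 0.78 and -0.58 with overlapping plates at every age. Ces2e and Ces2g each shared their signs with 2 neighbours, namely Ces2b and each other. Some of these signs rest on small log2 ratios, -0.01 for Ces2g at 6 weeks and -0.05 for Ces2b at 11 weeks. Of 9706 genes at the minimum level at every age, 11.8% had the signs of Ucp2 and Serinc3. The signs of Ces2e and Ces2g were those of 16.4%, and nothing is read from the neighbour counts.

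The families of these genes were taken from lists chosen with earlier results known, and a gene counts below as past the fold beyond 1.5-fold between genotypes. Of the 6 genes listed as uncoupling proteins, 5 were in the table and 3 reached the minimum level. Slc25a30, an inner membrane carrier related to them, stood at 21.1 and 24.9, 20.6 and 19.7, and 15.4 and 25.6 in Lean and ob/ob at the 3 ages, and Slc25a14 stayed between 4.06 and 7.99 in the 6 groups. At 20 weeks Slc25a30 passed the fold upward and Ucp2 downward.

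In the Serinc family, 4 of 5 genes reached the minimum level. Serinc5 had the sign pattern of Serinc3 at a lower level, 10.0 and 21.4 at 6 weeks, 8.19 and 13.2 at 11 weeks and 19.1 and 11.6 at 20 weeks, with log2 ratios of 1.02, 0.63 and -0.67 and separate plates at 6 weeks only. Serinc1, the other abundant member, stood at 233 and 252, 195 and 183, and 193 and 258, with log2 ratios of 0.11, -0.09 and 0.42. Per kilobase of exon Serinc1 ranged from 35.6 to 50.2 and Serinc5 from 1.23 to 3.20. Serinc4 stood between 31.6 and 49.96, and its exons overlap those of neighbouring genes.

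Of 20 carboxylesterase genes listed, 13 were in the table, 10 stayed under 1 count per 500000, and Ces2e, Ces2g and Ces2b reached the minimum level. Ces2b went from 8.40 in Lean and 4.63 in ob/ob at 6 weeks to 5.99 and 5.77 at 11 weeks and 4.32 and 5.10 at 20 weeks, with overlapping plates throughout. Per kilobase of exon it reached at most 2.47, against 54.9 for Ces2e, so Ces2e was the main carboxylesterase transcript of this family in these cells by this measure.

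Other genes of related pathways were counted in the same way. Of 16 antioxidant enzymes, 0, 0 and 2 passed the fold upward and 1, 0 and 3 downward at 6, 11 and 20 weeks, beside the shares of all genes given above, and their median log2 ratio was -0.20, -0.09 and -0.13. At 20 weeks Txnrd2 and Gsr, which reduce thioredoxin and glutathione, were higher in ob/ob with log2 ratios of 0.72 and 0.71, and Sod1, Txn1 and Glrx2 were lower with -0.63, -0.62 and -0.59. The median of the fatty acid genes at the minimum level, 14 at 6 weeks and 13 at 11 and at 20 weeks, was -0.12, -0.10 and 0.27, with 2, 0 and 0 past the fold upward and 2, 2 and 0 downward. Over all genes the median was 0.01, -0.09 and 0.01. For 12 apoptosis genes the median was -0.05, 0.05 and 0.09, with 0 upward at any age and 2, 0 and 0 downward, those at 6 weeks being Bcl2 (17.0 and 7.32) and Bid (15.7 and 10.0). The fatty acid genes past the fold at 6 weeks were Lpl and Ppargc1a upward (log2 ratios of 1.74 and 0.78) and Angptl4 and Plin2 downward (-1.45 and -0.59), all with overlapping plates, and Lpl is also one of the glomerular markers.

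Over the 22 plates, log2 levels of Ucp2 and Serinc3 had a Pearson correlation of 0.61 and those of Ces2e and Ces2g of 0.45, while the pairs across gave -0.45, -0.61, -0.67 and -0.73. Plates share group, preparation and depth, and the genes were chosen for their pattern over these groups, so the values only describe it. Within plates, cells showed almost none of it, as the median Spearman correlation over plates lay between -0.04 and 0.11 for the 6 pairs.

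Of 9891 genes, those most like Ucp2 over the plates were Slc6a6, the taurine transporter (r = 0.81), Socs5 (0.79), Tmem119 (0.78), Ifitm10 (0.78) and Lfng (0.77). Those most opposite were Rsrp1, the ribosome assembly factor Nop56 and Gm20481 (each -0.87), the heat shock gene Hspa1a (-0.86) and Nop58 (-0.85). After 0610039K10Rik, Serinc3 was closest to Slc44a1, a choline transporter (0.86), and then to Mal (0.83), Sult1a1 (0.77) and Tmtc1 (0.77), and most opposite to Gimap9 (-0.83) and Tgfbi (-0.79). Next among the opposite genes came Pole4 (-0.76), 9530026P05Rik (-0.75) and Gimap4 (-0.75).

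For Ces2e the closest genes were Igfbp5, which binds insulin-like growth factors (0.86), Sp100 (0.82), Acat3 (0.80), Kank4 (0.79) and Lgals9 (0.79), and the most opposite were Ttc39c (-0.81), Gprc5b (-0.79), Pxdn (-0.76), Stab1 (-0.76) and Mtmr2 (-0.75). For Ces2g they were Tgfbi (0.87), Hbegf (0.83), Adamts16 (0.82), Timp2 (0.79) and Gm37035 (0.78), against Il33 (-0.84), Gpr182 (-0.79), Entpd1 (-0.78), Man1c1 (-0.77) and Mfap2 (-0.77). Il33 is one of the capillary and venous markers, and Ces2g had a correlation of -0.70 with the summed level of those markers over the plates.

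Other measures moved with the groups. The summed level of 12 immediate early genes, transcripts such as Fos and Jun that are known to rise quickly after cell stress, was 6932 in Lean and 5379 in ob/ob at 6 weeks, 4725 and 3493 at 11 weeks, and 3698 and 5049 at 20 weeks. Of the 12, 11 had the signs down, down and up, as had 16.4% of 9706 genes at the minimum level at every age. Past 1.5-fold were 2 downward at 6 weeks, 3 downward at 11 weeks and 1 upward at 20 weeks, and plates overlapped in most cases. The correlation of the sum with the plate levels was -0.74 for Ucp2, -0.18 for Serinc3, 0.18 for Ces2e and 0.44 for Ces2g, whereas within plates the median correlation over cells was between -0.04 and 0.03. Within the lower, middle and upper tercile of cells by this sum, a split made after seeing the data, the log2 ratio of Ucp2 was 1.09, 0.91 and 0.77 at 6 weeks, 1.08, 0.92 and 0.87 at 11 weeks, and -0.79, -0.68 and -0.52 at 20 weeks. Serinc3 likewise kept its signs in every tercile, with values between 0.46 and 0.60, between 0.94 and 1.18, and between -0.96 and -0.86 at the 3 ages. Ces2e at 6 weeks did not, with 0.24, -0.42 and -0.86, and neither did Ces2g at 6 weeks, with 0.57, -0.16 and -0.12, while at 11 and 20 weeks both kept their signs. Within terciles, plates of Ucp2 overlapped in the upper tercile at 6 weeks and in the lower and upper terciles at 20 weeks. Plates of Serinc3 overlapped in the upper tercile at 11 weeks, and those of Ces2e and Ces2g in several terciles. The part of immediate early genes in the ratios was not tested.

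The mix of cells also differed. The capillary and venous marker sum was 1630.5 in Lean and 2441 in ob/ob at 11 weeks, and the afferent sum was 537 and 344 at 11 weeks and 382 and 615 at 20 weeks. The descending vasa recta sum was 799.9 and 549 at 11 weeks and 402 and 760.2 at 20 weeks. The glomerular sum lay between 1451 and 1981 in the 6 groups, and the proximal tubule sum was 32.0 in ob/ob at 11 weeks and between 5.09 and 13.0 elsewhere, with all 8 proximal tubule markers detected. The lymphatic sum over 3 markers was 6.72 in Lean and 21.9 in ob/ob at 6 weeks, 11.9 and 6.30 at 11 weeks, and 13.6 and 1.66 at 20 weeks, with separate plates at 6 and 20 weeks. Of these markers Mmrn1 stood at 4.00 and 14.3 at 6 weeks and at 7.85 in Lean and 0 in ob/ob at 20 weeks. The podocyte sum was at most 2.03 and the immune sum at most 9.77 in any group. Their part in the results was not tested. Over all cells the Ces2g log2 ratios were -0.01, -1.34 and 1.13. In the afferent gate they were 0.60, -0.04 and 0.51, with overlapping plates at each age. That gate held only 11 ob/ob cells at 11 weeks and 9 Lean cells at 20 weeks. The glomerular gate gave -0.39, -1.38 and 2.02, and the capillary and venous gate 0.44, -1.10 and 1.29. The efferent gate gave -1.53, 0.26 and 1.01, and the vasa recta gate 0.45 and -0.59 at 6 and 11 weeks.

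**Figure D5:**
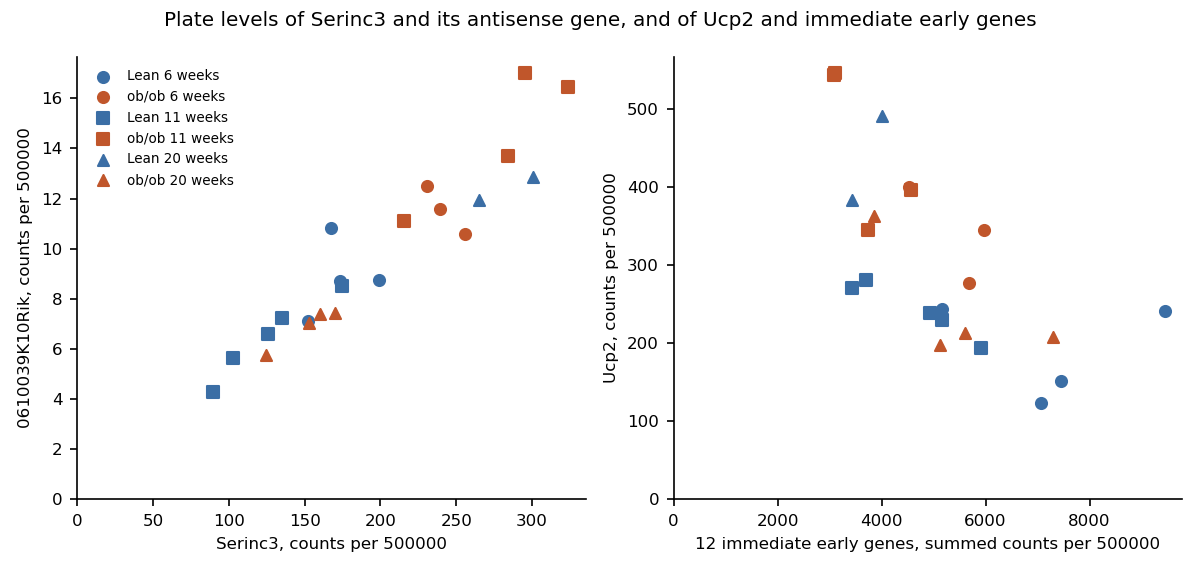
Left, Serinc3 against its antisense neighbour 0610039K10Rik, and right, Ucp2 against the summed level of 12 immediate early genes, in counts per 500000 for each of the 22 plates (Lean blue, ob/ob orange; circles, squares and triangles for 6, 11 and 20 weeks). The antisense level stays at 4.14% to 6.46% of the Serinc3 level, and Ucp2 is lower in plates with a higher sum (r = -0.74 on log2 levels).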

How the data were processed

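Single kidney endothelial cells of Lean and ob/ob mice at 6, 11 and 20 weeks were profiled by SmartSeq2 with single reads of 50 bases and 1 plate per lane. The authors trimmed reads with Trim Galore, aligned them to GRCm38 (mm10) and removed duplicates, and the submitters' processing notes name TopHat2 2.1.1, SAMtools 0.1.18 and featureCounts of Subread 1.4.6-p5. The deposited values are raw counts of reads per gene and cell, after the authors removed cells under 50000 counts and cells with epithelial genes. The strand setting and the annotation release are not given in the sources used here. All columns were mapped to a group by their labels, so 0 were unused, and plates were read from the column names.

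For each group, plate or gate, the counts of a gene were added up, divided by all counts of the same cells and given per 500000. Log2 ratios were taken after adding 1 to each level, and the minimum level for counts over genes was 5. Differences between gates were tested with edgeR 4.0.16 in R 4.3.3 (quasi-likelihood test, TMM, filterByExpr, Benjamini-Hochberg over all genes tested, threshold 0.05), which was tested on simulated data with 200 changed genes. DESeq2 1.42.0, size factors in edgeR, no filter, every cell of a gate, doubled gate thresholds, a pseudocount of 5, means over cells and leaving out each plate or age were tried as alternatives. Disjoint gates, terciles of immediate early genes and the ratio without the plates lacking Xist were added after seeing the data. Other steps used Python 3.11.15 with numpy 2.4.6, pandas 2.3.3, scipy 1.17.1 and matplotlib 3.10.9. Of 29735 symbols, 26871 (90.4%) matched GENCODE vM21.

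The members and lists were chosen with earlier results of these data known. The 4 members are named in full, the list genes at the minimum level are named or counted, and the 5 genes with the highest and the 5 with the lowest correlation to each member over plates are named. Total counts per cell were at least 50274. The leptin gene was not analysed here.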

Additional observations from a re-analysis of the deposited data

Results flagged for a closer look

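The 4 genes were each examined in the same 4 groups of 4 or 5 plates for a plate far from the others, and 2 of these 16 sets of values had one, where chance gives one in about 5% of sets. Plate A of ob/ob at 20 weeks had a Ucp2 level of 363, with a gap to the nearest plate of 0.908 of the range of the group. Plate C of ob/ob at 11 weeks had a Ces2g level of 9.69, with a gap of 0.915 of the range.

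The log2 ratio of ob/ob to Lean differed between ages with every plate of one genotype on one side at the first age and on the opposite side at 20 weeks. For Ucp2 the ratio at 6 weeks minus that at 20 weeks was 1.59, and that at 11 weeks minus that at 20 weeks was 1.69. For Serinc3 the corresponding differences were 1.44 and 2.01. For Ces2g the difference between 11 and 20 weeks was -2.47. The genes were chosen for this pattern, and these differences were not tested.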

How the results depend on the processing

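Over all cells, leaving out each plate in turn kept the sign of the genotype ratio for Ucp2 and Serinc3 at each age (0.70 to 1.10, 0.87 to 1.09 and -1.07 to -0.53 for Ucp2 at 6, 11 and 20 weeks, and 0.46 to 0.56, 0.99 to 1.25 and -0.99 to -0.81 for Serinc3). Ces2g at 6 weeks ran from -0.26 to 0.23 and has no direction. By tercile of immediate early genes, an added choice, Ces2e at 6 weeks moved to 0.24 in the lower and -0.86 in the upper tercile, and Ces2g to 0.57 in the lower at 6 weeks and 1.78 in the upper at 20 weeks. Of 680 alternatives for 60 gate ratios, 636 stayed within the spread, 33 moved and 11 changed the sign of a ratio past 1.5-fold. A change of sign in a smaller ratio was counted as within the spread or as moved.

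The sign changes listed next are those of ratios past 1.5-fold. Signs changed in cells of exactly 1 gate for Ucp2 in the vasa recta at 11 weeks (-5.16) and the afferent gate at 20 weeks (0.66), Serinc3 in the vasa recta at 11 weeks (-0.65), and Ces2g in the afferent gate at 6 weeks (-0.095) and the vasa recta at 20 weeks (-0.37). Doubled thresholds gave -0.72 for Ces2e in the vasa recta at 20 weeks, and the mean over cells gave 0.087 for Ces2g in the vasa recta at 11 weeks. Without 1 plate, Ucp2 in the afferent gate at 6 weeks ranged from -0.80 (ob/ob A) to 1.403, Ces2e at 20 weeks from -0.78 (ob/ob B) to 4.91 in the vasa recta and from -0.39 (ob/ob B) to 1.49 in the efferent gate, and Ces2g in the vasa recta at 11 weeks from -1.84 to 0.26 (Lean A). The cause was not tested.

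Genes differing between gates numbered 1326 in Lean and 2265 in ob/ob by edgeR. DESeq2 gave 5091 and 3839, no filter 2932 and 4394, doubled thresholds 800 and 995, and leaving out an age 27 to 40 and 60 to 1428. Many of the small sums held 1 to 9 cells, and the cause of these changes was not tested. The Ces2e call in ob/ob glomerular cells was also lost with size factors or without the filter. No paired analysis was possible because the numbers in the labels count single cells and tie no cell or plate of one group to another, and no genotype test was made.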
